A study of Mus musculus with 13 samples.

Results

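The collagen genes of the mouse were followed through draining lymph nodes (tdLN) and tumours of mice bearing B16F10, a pigmented mouse melanoma line grown in the skin of the flank. Members were the rows whose Ensembl identifier maps in GENCODE M21 to a protein-coding gene with a symbol of the form Col, number, a, number. This gave 44 of 49315 listed genes, 44 of 21811 among the protein-coding ones. Membership of the family went by name, not by any measured value, but the family was chosen with earlier results of these data known. Libraries of female mice fell into 3 groups of 3: nodes of Foxp3Ctrl mice, nodes of Foxp3ΔJag1 mice and tumours of Foxp3Ctrl mice. Foxp3ΔJag1 mice carried a tamoxifen-inducible Cre recombinase expressed from Foxp3, which marks regulatory T cells, and 2 floxed copies of Jag1, the gene of the Notch ligand Jagged-1. Foxp3Ctrl mice are wild type by one label and carry the same Cre with 1 floxed and 1 wild-type Jag1 copy by the design text, so their genotype is not settled. Mice of every group, aged 6 to 8 weeks, received 5 tamoxifen doses, each of 0.1 mg per gram body weight. After 9 days of washout, 200000 B16F10 cells in Matrigel, an extract of basement membrane, were placed in the skin at up to 11 weeks of age. Cre acts only in cells that express Foxp3, whereas the RNA came from whole tissue. Library names give node and tumour of each Foxp3Ctrl number the same mouse code.

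Collagens are mostly secreted proteins of 3 chains wound into a triple helix, and each chain has its own gene. Fibrillar collagens build the ropes of connective tissue, collagen IV the sheet of the basement membrane under vessels and epithelia, and collagen VI the beaded filaments that lie between them. FACIT collagens sit on the surface of fibrils. In a lymph node, fibroblastic reticular cells wrap collagen fibres into conduits that carry lymph, and the collagens of a solid tumour are made mainly by its fibroblasts, vessel wall cells and, for some chains, the tumour cells.

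Total counts were 33157236 to 44540888 per node library and 32117478 to 40968494 per tumour library. CPM is the deposited count of a gene scaled by the total count of its library. Jag1, the targeted gene, averaged 23.2 ± 1.21 CPM over the Foxp3Ctrl nodes and 24.1 ± 3.58 CPM over those of Foxp3ΔJag1 mice (SD, n = 3 each), and counts per gene do not isolate its floxed part. Summed pigment cell markers (7 genes) were at 10.8 to 36.5 CPM in nodes and 17648 to 23066 CPM in tumours, and summed lymphocyte markers (9 genes) at 3446 to 3675 and 25.8 to 39.3 CPM, so the libraries match their tissue labels. Foxp3Ctrl node 3 held the 36.5 CPM of pigment cell markers, against 10.8 to 17.1 CPM in the other nodes. It also held 132 CPM of 10 keratinocyte and epithelial markers against 10.9 to 38.3 CPM in the other nodes. Summed adipocyte markers (8 genes) reached 209 CPM in Foxp3Ctrl node 3 and 263 CPM in Foxp3ΔJag1 node 1, against 21.1 to 84.2 CPM in the other nodes, and 316, 341 and 36.3 CPM in tumours 1, 2 and 3. Summed skeletal muscle markers (6 genes) were at 233 CPM in tumour 3 and 4.05 and 4.15 CPM in the other tumours. In whole tissue, fewer cells of a type and less RNA per cell cannot be told apart.

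Collagen transcripts were a larger share of the tumour libraries than of the node libraries. The 44 genes summed to 1549, 1691 and 841 CPM in the Foxp3Ctrl nodes, to 993, 1343 and 1137 CPM in the Foxp3ΔJag1 nodes and to 6758, 3883 and 2775 CPM in the tumours. All 3 tumours lay above all 6 nodes, and the means of tumour and Foxp3Ctrl node, 4472 ± 2055 and 1361 ± 456 CPM (SD, n = 3 each), stood 3.29-fold apart. The tumours also spread most among themselves, tumour 1 holding the highest sum. Tumours 1 and 2 also held the most adipocyte marker RNA of the tumours, whose part in this was not tested. Without replicate 3 of both tissues, an alternative chosen after seeing the data, the means were 1620.4 and 5321 CPM, 3.28-fold apart. Among the nodes, Foxp3Ctrl node 3 held the lowest sum and Foxp3ΔJag1 nodes lay inside the range of the Foxp3Ctrl nodes. Col1a1, Col1a2, Col3a1, Col4a1 and Col4a2 together gave 52.4 to 68.9% of the collagen counts in nodes and 70.5 to 76.2% in tumours. The fibrillar family gave 41.5 to 52.3% in nodes and 61.7 to 71.3% in tumours. Collagen IV gave 20.6 to 28.1% and 12.6 to 19.4%, and collagen VI 14.6 to 19.9% and 8.13 to 8.81%. None of these 3 shares overlapped between the tissues, the fibrillar share being higher and the collagen IV and VI shares lower in every tumour. The summed levels themselves were higher on average in tumours, 4.54-fold for the fibrillar family, 2.17-fold for collagen IV (176 to 476 CPM in Foxp3Ctrl nodes, 514 to 853 CPM in tumours) and 1.69-fold for collagen VI, whose sums overlapped (167 to 260 and 226 to 572 CPM).

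**Figure D1:**
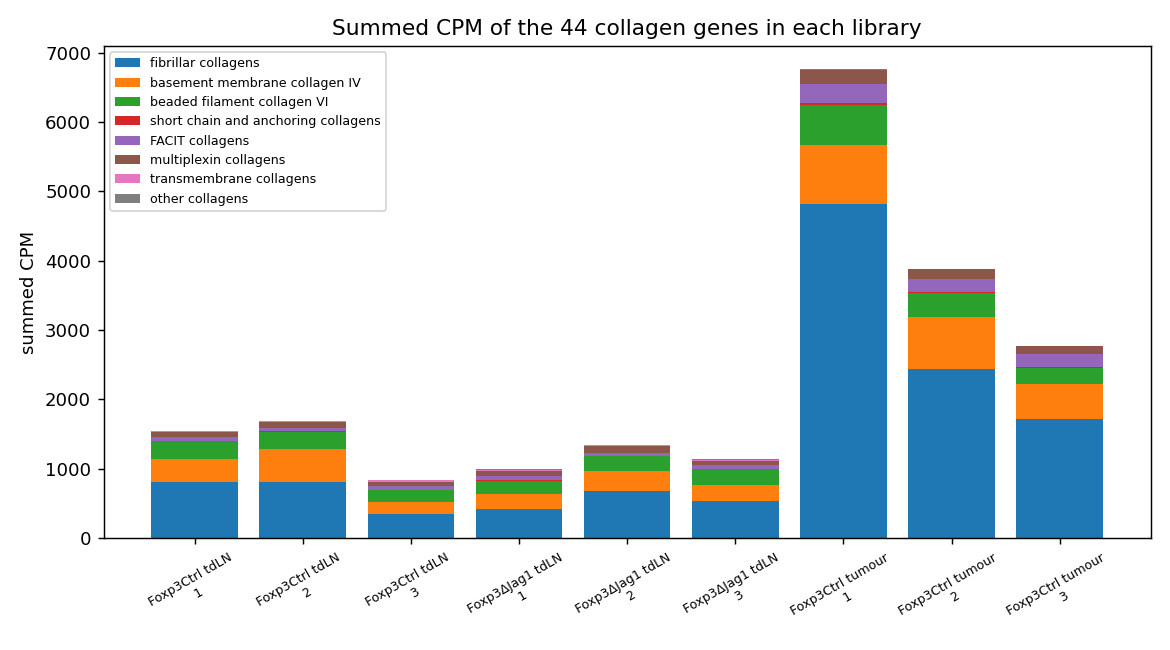
Stacked bars give the summed CPM of the 44 collagen genes (vertical axis) in each of the 9 libraries (horizontal axis), with one colour per collagen family. The 3 tumours, at 2775 to 6758 CPM, stand above the 6 nodes, at 841 to 1691 CPM, and the fibrillar block is the tallest in every library.

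Levels of different genes were compared only per kilobase of transcript. Per kilobase of merged exons, Col1a1 led in Foxp3Ctrl nodes at 27.4 CPM, followed by Col4a1 at 24.9, Col4a2 at 20.6, Col6a1 at 19.9, Col1a2 at 17.1 and Col3a1 at 16.3 CPM. Neighbours in that order lay within the spread of the 3 nodes. Per kilobase of the longest transcript, Col1a2 moved to the front at 39.8 CPM, ahead of Col1a1 at 30.3 and Col3a1 at 28.7 CPM, so the order of the leading chains depended on the length used. In tumours, Col1a1 at 155 CPM and Col3a1 at 100.5 CPM led per kilobase of merged exons, and at 171 and 177 CPM they also led per kilobase of the longest transcript. Col16a1, a FACIT chain, ranked 7 among the 44 in tumours and 18 in Foxp3Ctrl nodes per kilobase of merged exons.

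**Figure D2:**
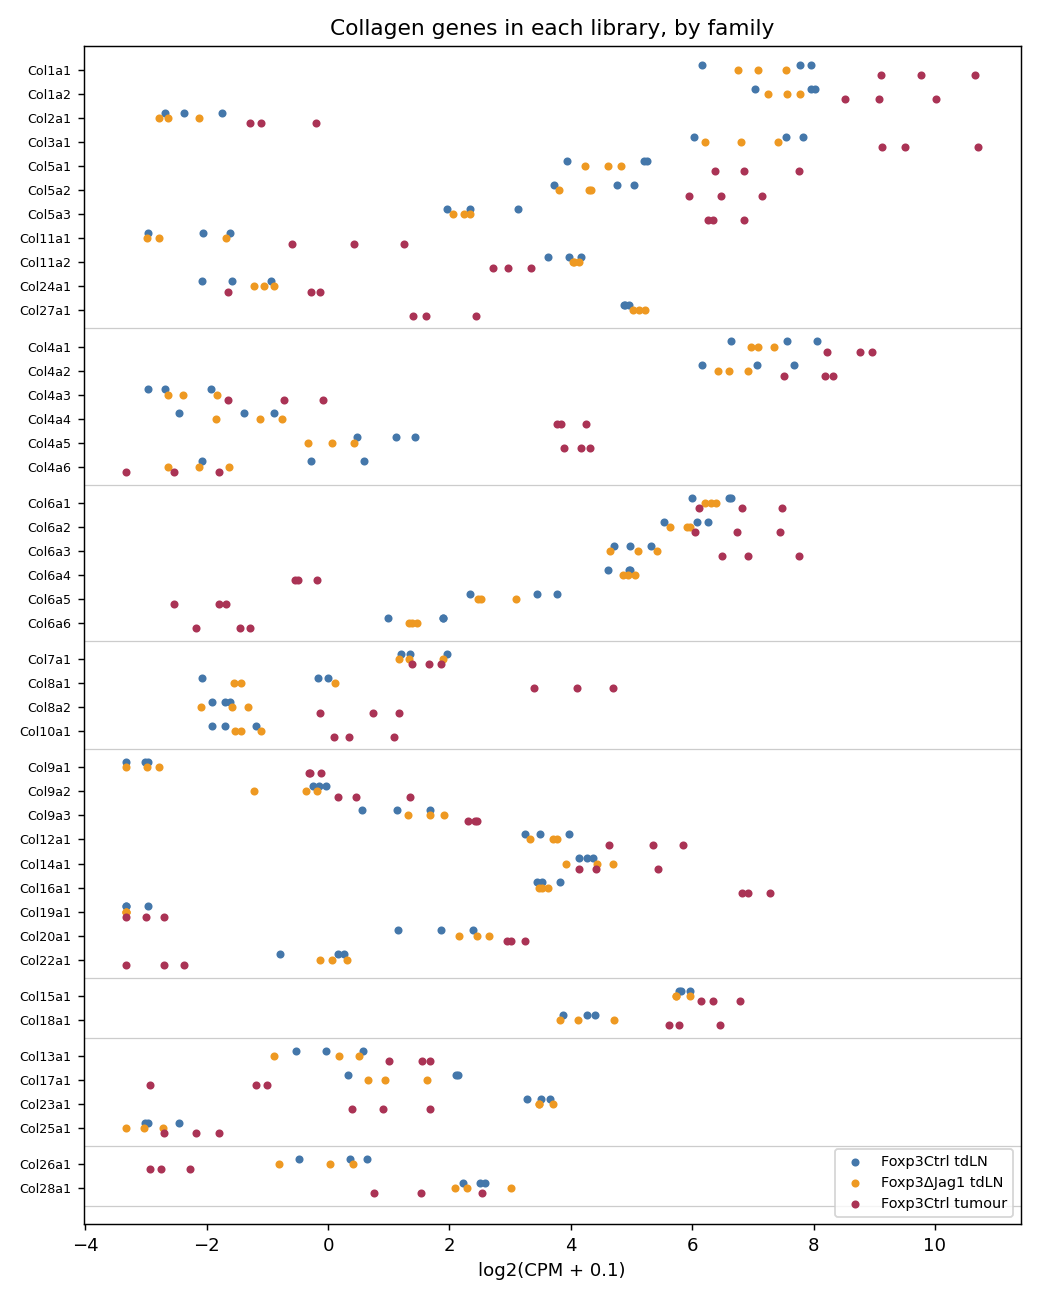
Each point is one gene in one library, on a log axis of log2(CPM + 0.1), with genes in rows grouped by collagen family and colours for the 3 groups of 3 libraries. Tumour points lie to the right of the node points for most fibrillar rows and to the left for Col6a4, Col6a5 and Col6a6, while both node groups overlap in most rows.

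The first comparison set the 3 tumours against the 3 nodes of the same Foxp3Ctrl mice and asked which collagens differed between the tissues. Of 44 members, 40 passed the filter on low counts; Col4a3, Col4a6, Col19a1 and Col25a1 did not. Of those 40, 24 rose, 9 fell and 7 did not pass an edgeR adjusted p of 0.05. Across all 18566 genes tested, 35.6% rose and 37.6% fell, 73.2% in either direction, so a call is common between these tissues. The members' fitted log2 fold changes had a median of 1.29, beside -0.048 over all genes tested. Tumour and node values did not overlap for the 24 members that rose and the 9 that fell, beside 36.5% of all genes not overlapping with tumours higher and 41.5% with tumours lower. Without Foxp3Ctrl node 3 and tumour 3, an alternative chosen after seeing the data, 25 rose and 9 fell. The rises were 8 of the 11 fibrillar genes, 3 of 4 tested collagen IV genes, 6 of 8 tested FACIT genes, 3 of 4 short chain genes and both multiplexins, with the rest in other families. The falls were 3 in collagen VI, 2 each among fibrillar and transmembrane collagens and 1 each among FACIT and other collagens. Of the 3 tumours, tumour 1 was highest for 28 of the 40 members (35.0% of all genes were highest there) and tumour 3 lowest for 24 (33.0%).

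**Figure D3:**
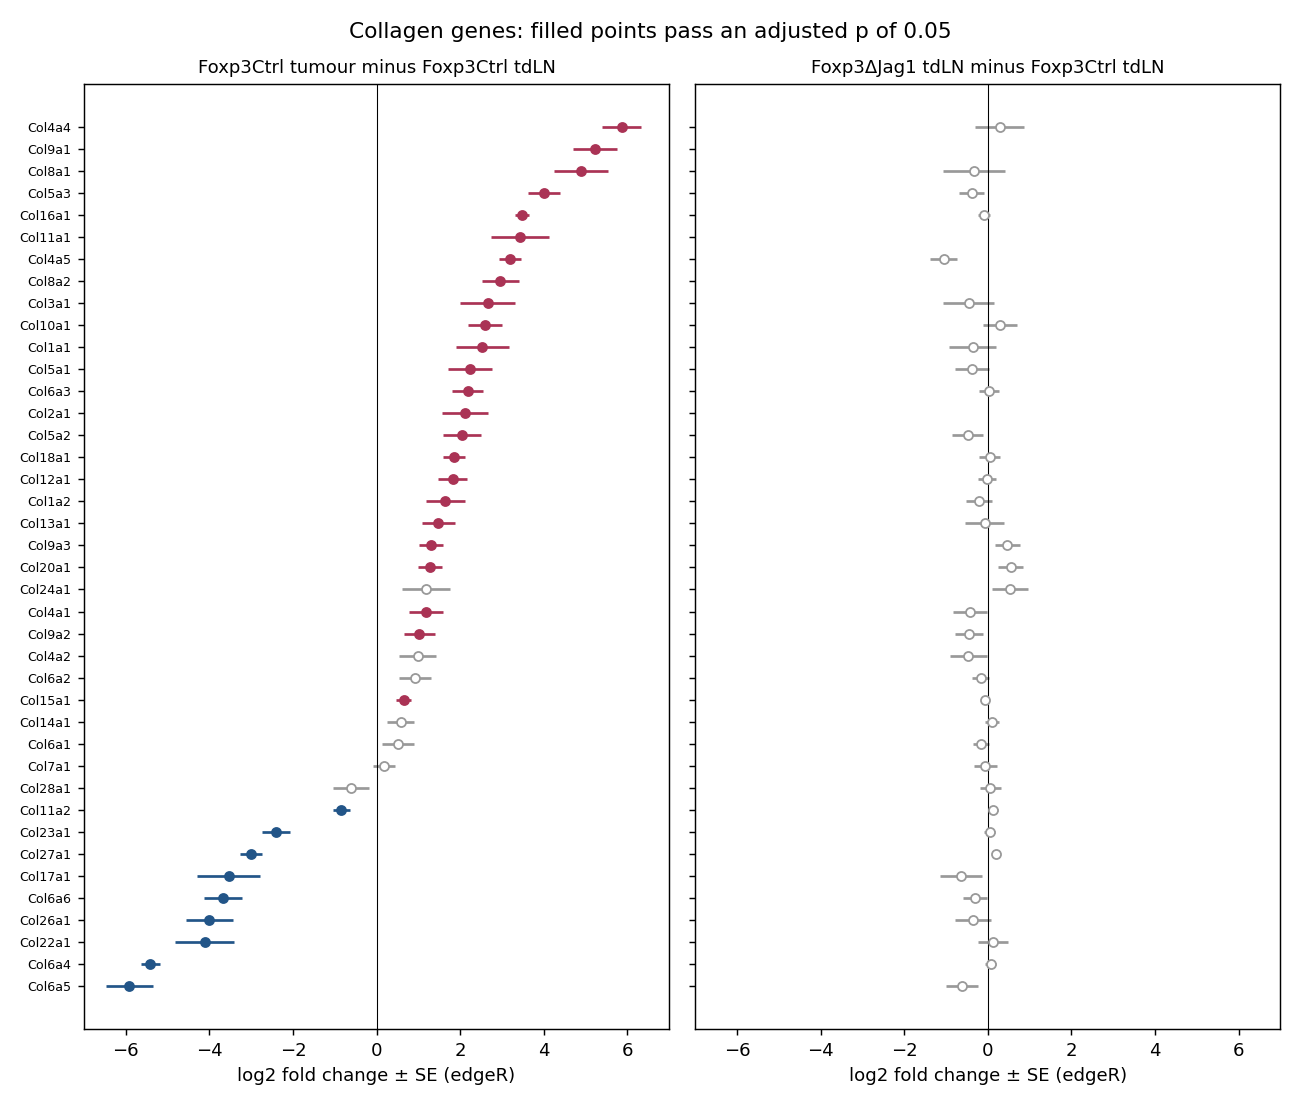
Points are edgeR log2 fold changes and bars their standard errors for the members tested, in the same row order in both panels, with filled points past an adjusted p of 0.05. The left panel (tumour minus node, Foxp3Ctrl) runs from -5.91 for Col6a5 to 5.86 for Col4a4, and the right panel (Foxp3ΔJag1 minus Foxp3Ctrl node) holds no filled point.

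Among the 11 fibrillar genes, 8 rose, 2 fell and Col24a1, at 0.138, 0.232 and 0.423 CPM in Foxp3Ctrl nodes and 0.719, 0.22 and 0.81 CPM in tumours, did not pass. The median log2 fold change of the 11 was 2.12. Col24a1 differed by 1.18 ± 0.57 on the log2 scale (SE; edgeR adjusted p = 0.0928), and passed without tumour 2 (edgeR adjusted p = 0.0217). Col1a1 (chromosome 11, 94936224 to 94953042, GRCm38), the main chain of collagen I, stood at 219, 248 and 71.8 CPM in the Foxp3Ctrl nodes, 107, 186 and 136 CPM in the Foxp3ΔJag1 nodes and 1626, 871 and 550.3 CPM in the tumours. Every tumour lay above every node, and Foxp3Ctrl node 3 was the lowest node. Its tumour minus Foxp3Ctrl node difference was a log2 fold change of 2.53 ± 0.64 (SE; edgeR adjusted p = 0.0127). Col1a2 (chromosome 6, 4504814 to 4541544), the partner chain, was at 248, 259 and 132 CPM in the Foxp3Ctrl nodes, 153, 219.7 and 189.8 CPM in the Foxp3ΔJag1 nodes and 1032, 538 and 367 CPM in the tumours, with a log2 fold change of 1.64 ± 0.47 (SE; edgeR adjusted p = 0.0186). Without the filter on low counts these adjusted p-values were 0.0537 and 0.0758. Col3a1 (chromosome 1, 45311538 to 45349706), which forms the thin fibres of pliable tissue and of the reticular mesh of lymphoid organs, was at 228, 186 and 65.3 CPM in the Foxp3Ctrl nodes, 74.2, 171 and 112 CPM in the Foxp3ΔJag1 nodes and 1673, 725 and 559.6 CPM in the tumours. The tumours were again all higher, with tumour 1 far above the others and a log2 fold change of 2.66 ± 0.65 (SE; edgeR adjusted p = 0.0115). Without tumour 1 the Col3a1 difference was 2.07 (edgeR adjusted p = 0.0382).

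Collagen V starts fibrils and sets their width, and all 3 of its chains rose. Col5a3 (chromosome 9, 20770050 to 20815067) was at 4.96, 8.64 and 3.81 CPM in the Foxp3Ctrl nodes, 4.95, 4.61 and 4.06 CPM in the Foxp3ΔJag1 nodes and 115, 81.4 and 76.3 CPM in the tumours, with a log2 fold change of 4.00 ± 0.37 (SE; edgeR adjusted p = 9.25e-05). Its tumour values lay closer together than those of Col1a1 and Col3a1, and far above every node. Col5a1 and Col5a2 rose by 2.24 ± 0.53 on the log2 scale (SE; edgeR adjusted p = 0.00964) and 2.04 ± 0.46 on the log2 scale (SE; edgeR adjusted p = 0.00804), with tumours at 82.6 to 217 and 61.9 to 142 CPM and Foxp3Ctrl nodes at 15.3 to 38.03 and 13.1 to 32.7 CPM. Col11a1, a minor fibril chain of cartilage, was at 0.0275, 0.139 and 0.226 CPM in Foxp3Ctrl nodes and 1.25, 2.27 and 0.56 CPM in tumours, and its fitted change was 3.43 ± 0.70 on the log2 scale (SE; edgeR adjusted p = 0.00265). Its level stayed low in both tissues. Col2a1, the main cartilage chain, rose from between 0.0551 and 0.197 CPM to between 0.311 and 0.772 CPM. Of 6 chondrocyte and bone markers, Sox9, a transcription factor of chondrocytes and other cells, was at 1.84, 1.79 and 3.89 CPM in Foxp3Ctrl nodes. It was at 8.57, 4.2 and 9.84 CPM in tumours, higher without overlap (36.5% of all genes). Comp was lower in tumours without overlap (41.5% of all genes), at 0.936, 0.998 and 1.64 CPM in Foxp3Ctrl nodes and 0.719, 0.732 and 0.218 CPM in tumours. Bglap was at or under 0.141 CPM in every library. Acan was at 0 to 0.133 CPM in tumours and Ibsp at 0 in all 3, as in all nodes but one (0.0232 CPM), while Spp1, a secreted phosphoprotein also made outside bone, was at 105, 88.4 and 158 CPM in tumours. The part of such cells in the change of Col2a1 and Col11a1 was not tested.

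The fibrillar genes that fell were Col27a1 and Col11a2. Col27a1 (chromosome 4, 63214004 to 63334991), a fibrillar chain known from developing cartilage, was at 30.9, 29.4 and 29.6 CPM in the Foxp3Ctrl nodes, 37.4, 34.8 and 32.3 CPM in the Foxp3ΔJag1 nodes and 5.3, 2.54 and 2.96 CPM in the tumours. Node values lay within a narrow band and tumour values well below them, with a log2 fold change of -3.00 ± 0.27 (SE; edgeR adjusted p = 3.27e-05). Col11a2 was at 15.5, 12.3 and 17.8 CPM in Foxp3Ctrl nodes and 6.5, 7.71 and 10.1 CPM in tumours, a smaller difference of -0.85 ± 0.20 on the log2 scale (SE; edgeR adjusted p = 0.00554).

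Promoter windows of Col3a1 and Col5a1 are shown because both genes rose while their sequences just before the gene start are unlike. RefSeq windows of 250 bases before to 50 after a start (build GRCm38.p6) were found for 35 of the 44 members, 38 windows in all. Each was searched on both strands for CCAAT (or ATTGG), for the GC box GGGCGG (or CCGCCC) and for TATAAA (or TTTATA). These motifs share no bases in the stretches printed here. CCAAT was in 13 of the 38 member windows and 37.4% of all 32851 windows, GGGCGG in 23 and 35.7%, and TATAAA in 5 and 13.6%. Over the genes that rose (19 with a window), 8 held CCAAT, 11 the GC box and 3 TATAAA, and over those that fell (7 with a window), 2, 6 and 2 did. A match is a match of letters only. Printed stretches hold only bases before the annotated start, 5′ to 3′ on the gene's strand, with motif matches in capitals.
Col3a1, chr1:45311288-45311537, plus strand: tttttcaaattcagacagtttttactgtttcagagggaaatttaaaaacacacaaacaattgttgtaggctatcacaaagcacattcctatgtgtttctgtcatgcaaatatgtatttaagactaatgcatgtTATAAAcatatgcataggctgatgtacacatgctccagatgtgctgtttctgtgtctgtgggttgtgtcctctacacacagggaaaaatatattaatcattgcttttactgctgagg
Col5a1, chr2:27886175-27886424, plus strand: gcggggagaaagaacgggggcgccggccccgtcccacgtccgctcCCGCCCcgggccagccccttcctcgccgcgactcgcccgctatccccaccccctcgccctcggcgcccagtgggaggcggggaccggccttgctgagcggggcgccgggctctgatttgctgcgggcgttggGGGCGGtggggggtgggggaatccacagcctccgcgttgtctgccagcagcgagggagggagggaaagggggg
The Col3a1 stretch is 35.2% G or C and holds TATAAA, and the Col5a1 stretch is 76.4% G or C and holds the GC box on both strands.

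Chains that assemble together were then compared within each library, where library scaling cancels. Read counts of Col1a1 to Col1a2 stood in ratios of 0.884, 0.959 and 0.545 in Foxp3Ctrl nodes, 0.703, 0.848 and 0.719 in Foxp3ΔJag1 nodes and 1.58, 1.62 and 1.5 in tumours. All 6 node ratios were under 1 and all 3 tumour ratios above it. The ratio was 2.02-fold higher in tumours than in Foxp3Ctrl nodes, a difference of 1.02 on the log2 scale. The exact 2-sided permutation p was 0.1, the smallest that 3 against 3 can give (0.133 after Benjamini-Hochberg adjustment over the 4 ratios tested). Col4a1 to Col4a2, the chains of the common collagen IV trimer, had ratios of 1.41, 1.31 and 1.4 in Foxp3Ctrl nodes and 1.56, 1.49 and 1.64 in tumours. The difference was 0.19 on the log2 scale (exact permutation p = 0.1). For Col6a1 to Col6a2, ratios of 1.26, 1.49 and 1.38 in Foxp3Ctrl nodes and 1.02, 1.06 and 1.05 in tumours differed in the other direction, by -0.40 (exact permutation p = 0.1). Tumour ratios did not overlap the node ratios for any of these 3 pairs. Col3a1 to Col1a1, which form different trimers, had overlapping ratios of 1.04, 0.748 and 0.91 in Foxp3Ctrl nodes and 1.03, 0.832 and 1.02 in tumours (log2 difference 0.099, exact permutation p = 0.7). Ratios of counts are not ratios of molecules, since the genes differ in length.

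**Figure D4:**
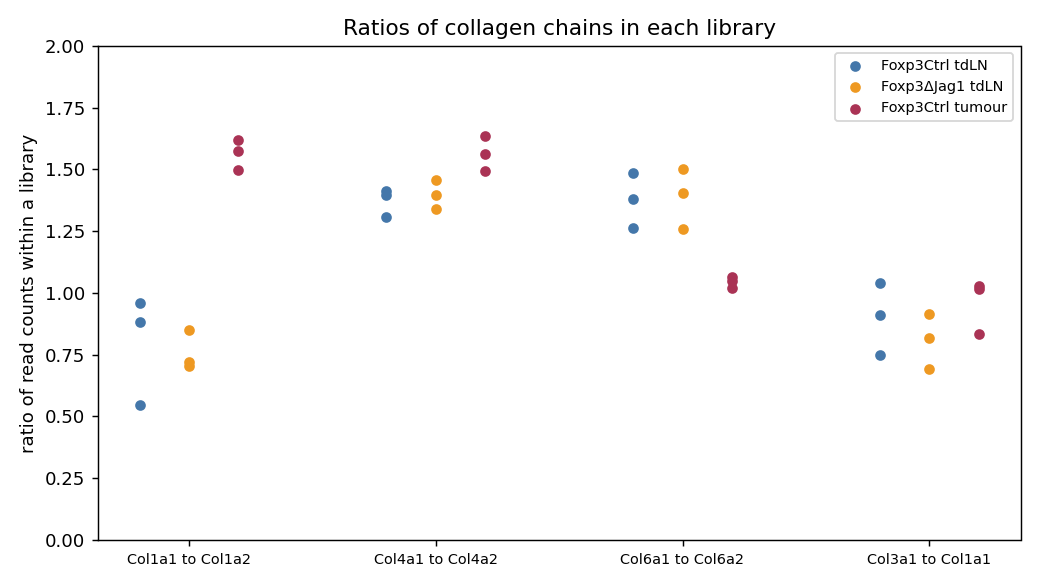
Points give, for each of the 9 libraries, the ratio of read counts of the 2 genes named on the horizontal axis, coloured by group, on a linear axis from 0. Tumour points for Col1a1 to Col1a2 lie at 1.5 to 1.62, above all node points, while those for Col6a1 to Col6a2 lie below all node points.

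Collagen IV genes lie in head-to-head pairs, and 3 of the 4 tested rose. Col4a1 (minus strand, chromosome 8, 11198423 to 11312826) and Col4a2 (plus strand, chromosome 8, 11312805 to 11449287) share 22 bases at their starts and encode the chains of the basement membrane found under nearly all vessels. Col4a1 was at 189, 268 and 99.9 CPM in the Foxp3Ctrl nodes, 126, 162 and 136 CPM in the Foxp3ΔJag1 nodes and 497, 433 and 297 CPM in the tumours. The tumours were all higher, with a log2 fold change of 1.18 ± 0.40 (SE; edgeR adjusted p = 0.0362). The call was lost without Foxp3Ctrl node 1 (edgeR adjusted p = 0.0791), without tumour 1 (0.121), without tumour 2 (0.0845) and without the filter on low counts (0.126). Col4a2 was at 134, 205 and 71.5 CPM in the Foxp3Ctrl nodes, 86.3, 121 and 97.3 CPM in the Foxp3ΔJag1 nodes and 319, 290.1 and 182 CPM in the tumours, overlapping between the tissues, with a log2 fold change of 0.98 ± 0.44 (SE; edgeR adjusted p = 0.085). With the mouse as a block, in which node and tumour of a mouse are compared directly, it was 1.09 with an edgeR adjusted p of 0.00396, and without Foxp3Ctrl node 2 it was 1.43 (0.02). Blood endothelial markers, summed over 8 genes, were at 908 to 1268 CPM in Foxp3Ctrl nodes and 219 to 327 CPM in tumours, lower without overlap for 7 of 8 (41.5% of all genes), and their part in these results was not tested.

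Genes of the other 2 pairs are known from the basement membranes of kidney, eye and ear, with Col4a5 and Col4a6 also under skin epithelium. In each pair one gene rose and its neighbour did not pass the filter. Col4a4 (minus strand, chromosome 1, 82448423 to 82586849) was at 0.0826, 0.441 and 0.282 CPM in the Foxp3Ctrl nodes, 0.495, 0.362 and 0.18 CPM in the Foxp3ΔJag1 nodes and 18.9, 13.6 and 14.2 CPM in the tumours. It rose 58.1-fold, the largest fitted rise of the 44 members, with a log2 fold change of 5.86 ± 0.46 (SE; edgeR adjusted p = 1.54e-05). Without Foxp3Ctrl node 2 its log2 fold change was 6.49. The Foxp3Ctrl node values rest on 3, 19 and 10 counts, so the size of this fold depends on few reads. Col4a3 (plus strand, chromosome 1, 82586921 to 82722059), whose annotated start is 71 bases away, was at 0.0551, 0.163 and 0.0282 CPM in the Foxp3Ctrl nodes, 0.182, 0.0603 and 0.0898 CPM in the Foxp3ΔJag1 nodes and 0.506, 0.22 and 0.841 CPM in the tumours, and it did not pass the filter. Col4a5 (plus strand, chromosome X, 141475385 to 141689234) was at 1.29, 2.07 and 2.59 CPM in the Foxp3Ctrl nodes, 1.25, 0.694 and 0.943 CPM in the Foxp3ΔJag1 nodes and 17.9, 14.8 and 19.8 CPM in the tumours, each tumour far above each node, with a log2 fold change of 3.20 ± 0.26 (SE; edgeR adjusted p = 1.7e-05). Col4a6 (minus strand, chromosome X, 141165403 to 141474076), 1308 bases from it, was at 0.138, 0.72 and 1.41 CPM in the Foxp3Ctrl nodes, 0.13, 0.0603 and 0.225 CPM in the Foxp3ΔJag1 nodes and 0.186, 0.0732 and 0 CPM in the tumours and was not tested. Its highest node, Foxp3Ctrl node 3, was also the node with the most keratinocyte and epithelial marker RNA, whose part in the Col4a6 value was not tested.

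**Figure D5:**
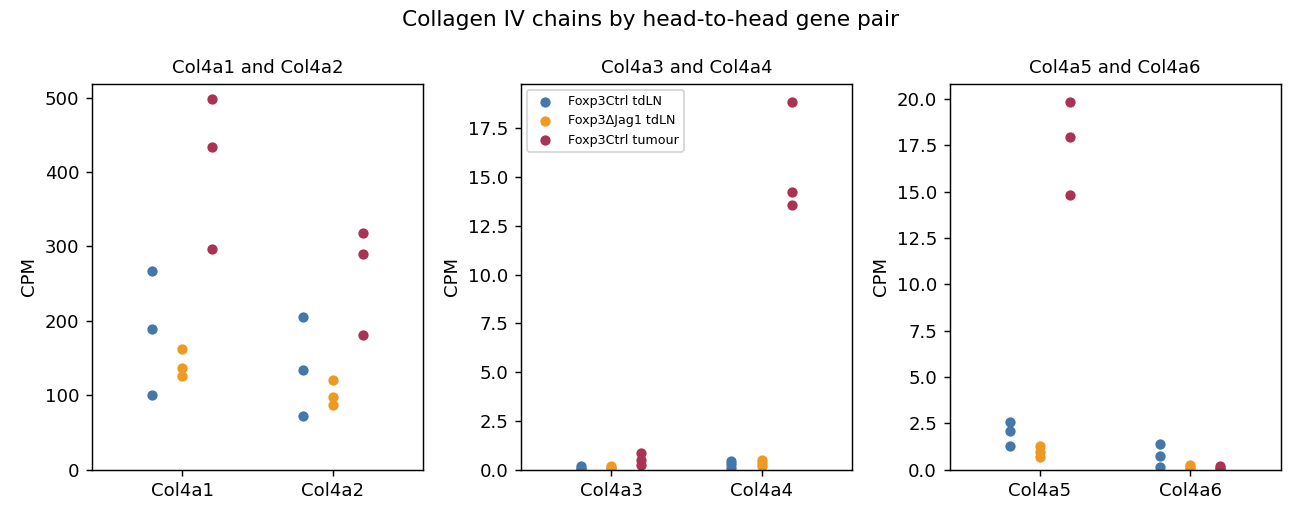
Each panel shows a head-to-head pair of collagen IV genes, with CPM per library on a linear axis whose scale differs between panels, and colours for the 3 groups of 3 libraries. Col4a4 and Col4a5 reach 13.6 to 18.9 and 14.8 to 19.8 CPM in tumours, while their neighbours Col4a3 and Col4a6 stay at or under 0.841 and 1.41 CPM in all libraries.

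Sequence between the starts of these genes is shown because the neighbours share it, whole for Col4a4 and Col4a3 and next to each start for Col4a5 and Col4a6. The 71 bases between Col4a4 and Col4a3 are written on the strand of Col4a4, are 69.0% G or C and hold none of the 3 motifs. The Col4a5 stretch holds CCAAT and the Col4a6 stretch the GC box as CCGCCC.
Col4a4, chr1:82586850-82586920, minus strand: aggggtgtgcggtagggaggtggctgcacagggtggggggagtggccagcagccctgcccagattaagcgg
Col4a5, chrX:141475169-141475384, plus strand: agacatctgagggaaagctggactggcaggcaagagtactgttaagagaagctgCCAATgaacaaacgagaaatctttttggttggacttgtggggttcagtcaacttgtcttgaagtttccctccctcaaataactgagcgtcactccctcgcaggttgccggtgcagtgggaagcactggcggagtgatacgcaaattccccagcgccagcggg
Col4a6, chrX:141474077-141474326, minus strand: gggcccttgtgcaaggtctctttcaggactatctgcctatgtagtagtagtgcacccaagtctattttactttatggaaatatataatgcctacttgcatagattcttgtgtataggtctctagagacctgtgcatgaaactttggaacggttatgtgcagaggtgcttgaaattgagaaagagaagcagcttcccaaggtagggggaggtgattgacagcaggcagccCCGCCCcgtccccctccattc

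Collagen VI divided by position. Col6a1 and Col6a2, neighbours on chromosome 10, and Col6a3 on chromosome 1 encode the widespread trimer, and Col6a6, Col6a5 and Col6a4 follow one another on one strand of chromosome 9 with 27917 and 28810 bases between them. All 3 genes of the chromosome 9 row fell. Col6a4 (chromosome 9, 105989454 to 106096783) was at 31.3, 31.04 and 24.3 CPM in the Foxp3Ctrl nodes, 33.1, 28.9 and 30.6 CPM in the Foxp3ΔJag1 nodes and 0.586, 0.61 and 0.778 CPM in the tumours, a 42.4-fold lower level in tumours with a log2 fold change of -5.41 ± 0.22 (SE; edgeR adjusted p = 5.91e-07). Col6a5 (chromosome 9, 105856078 to 105960643) was at 10.8, 13.6 and 4.94 CPM in the Foxp3Ctrl nodes, 5.47, 5.67 and 8.44 CPM in the Foxp3ΔJag1 nodes and 0.213, 0.0732 and 0.187 CPM in the tumours. Its level was 60.2-fold lower in tumours, the largest fitted fall among the members, with a log2 fold change of -5.91 ± 0.56 (SE; edgeR adjusted p = 4.52e-05). The tumour values rest on 8, 3 and 6 counts, so the size of this fold depends on few reads. Col6a6 (chromosome 9, 105687809 to 105828160) was at 3.63, 3.6 and 1.89 CPM in the Foxp3Ctrl nodes, 2.5, 2.41 and 2.65 CPM in the Foxp3ΔJag1 nodes and 0.266, 0.122 and 0.311 CPM in the tumours, with a log2 fold change of -3.67 ± 0.45 (SE; edgeR adjusted p = 0.000165). Node values of Col6a4 lay in a narrow band and those of Col6a5 in a wider one, and no tumour value of these 3 genes reached a node value.
The Col6a5 stretch is shown as the one from this row of genes, with the GC box in capitals.
Col6a5, chr9:105960644-105960893, minus strand: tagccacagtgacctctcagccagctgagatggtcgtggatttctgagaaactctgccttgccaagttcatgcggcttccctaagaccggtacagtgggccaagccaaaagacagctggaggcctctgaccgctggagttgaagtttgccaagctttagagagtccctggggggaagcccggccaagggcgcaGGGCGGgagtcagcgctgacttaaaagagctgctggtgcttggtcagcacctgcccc

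Of the widespread trimer, only Col6a3 passed. It was at 40.1, 31.5 and 26.1 CPM in the Foxp3Ctrl nodes, 24.96, 42.6 and 34.5 CPM in the Foxp3ΔJag1 nodes and 217, 121 and 89.4 CPM in the tumours, with all tumours higher and a log2 fold change of 2.18 ± 0.36 (SE; edgeR adjusted p = 0.00166). Col6a1 was at 97.3, 99.9 and 63.8 CPM in Foxp3Ctrl nodes and 178, 114 and 68.97 CPM in tumours, with a log2 fold change of 0.51 ± 0.37 (SE; edgeR adjusted p = 0.255). For Col6a2 the values were 76.9, 67.2 and 46.2 CPM in Foxp3Ctrl nodes against 175, 107 and 65.9 CPM in tumours, with a log2 fold change of 0.92 ± 0.39 (SE; edgeR adjusted p = 0.0743). Tumour 3 lay among the nodes for both genes. With the mouse as a block, Col6a1 and Col6a2 passed at edgeR adjusted p = 0.0447 and 0.00204, and without tumour 3 at 0.0415 and 0.0136.

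Short chain collagens form lattices, such as the one under corneal and vascular endothelium, and 3 of the 4 genes of this group rose. Col8a1 (chromosome 16, 57624258 to 57754737) was at 0.138, 0.906 and 0.79 CPM in the Foxp3Ctrl nodes, 0.989, 0.241 and 0.269 CPM in the Foxp3ΔJag1 nodes and 25.7, 17.1 and 10.4 CPM in the tumours. Tumours were all higher, with a log2 fold change of 4.89 ± 0.64 (SE; edgeR adjusted p = 0.000427), and its partner Col8a2 rose by 2.96 ± 0.44 on the log2 scale (SE; edgeR adjusted p = 0.000464) from between 0.165 and 0.226 CPM to between 0.81 and 2.15 CPM. Col10a1, the chain of hypertrophic cartilage, rose from between 0.165 and 0.338 CPM to between 0.976 and 2.02 CPM. Col7a1, the anchoring fibril chain of skin, was at 2.45, 2.21 and 3.81 CPM in Foxp3Ctrl nodes and 3.54, 3.05 and 2.52 CPM in tumours, with a log2 fold change of 0.18 ± 0.27 (SE; edgeR adjusted p = 0.563).

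FACIT collagens coat fibrils without forming them, and 6 of the 8 genes tested rose. Col16a1 (chromosome 4, 130047840 to 130099283) was at 14.1, 10.7 and 11.4 CPM in the Foxp3Ctrl nodes, 11.4, 10.98 and 12.2 CPM in the Foxp3ΔJag1 nodes and 155, 113 and 121 CPM in the tumours. Libraries of a tissue agreed closely, and the 11.2-fold rise carried the smallest adjusted p among the members that rose, with a log2 fold change of 3.49 ± 0.17 (SE; edgeR adjusted p = 1.23e-06). Col12a1, found on collagen I fibrils, was at 15.6, 11.1 and 9.33 CPM in Foxp3Ctrl nodes and 57.3, 40.8 and 24.6 CPM in tumours, with a log2 fold change of 1.82 ± 0.35 (SE; edgeR adjusted p = 0.00254). Col14a1 was at 19.2, 17.5 and 20.4 CPM in Foxp3Ctrl nodes against 43.3, 21.3 and 17.5 CPM in tumours, which overlapped, with a log2 fold change of 0.58 ± 0.32 (SE; edgeR adjusted p = 0.143), and it passed without tumour 3 (0.85, edgeR adjusted p = 0.0263). The collagen IX genes all rose from low levels. Col9a1 had 2 counts over the 3 Foxp3Ctrl nodes and 83 over the 3 tumours, a ratio per total count of 43.1 (95% counting interval 11.6 to 362), and passed at an edgeR adjusted p of 5.39e-05. Col9a2 was at 0.799, 0.743 and 0.874 CPM in Foxp3Ctrl nodes against 1.28, 1.03 and 2.46 CPM in tumours, with a log2 fold change of 1.03 ± 0.37 (SE; edgeR adjusted p = 0.0342); the call was lost without any one Foxp3Ctrl node (edgeR adjusted p = 0.0694 to 0.0857) and without tumour 3 (0.117). Col9a3 and Col20a1 rose by 1.30 ± 0.29 on the log2 scale (SE; edgeR adjusted p = 0.00369) and 1.28 ± 0.29 on the log2 scale (SE; edgeR adjusted p = 0.00462), each with every tumour above every Foxp3Ctrl node. Col22a1, known from muscle-tendon junctions, fell from 1.1, 1.02 and 0.479 CPM in Foxp3Ctrl nodes to 0.0533, 0 and 0.0934 CPM in tumours, by a fitted -4.11 ± 0.71 on the log2 scale (SE; edgeR adjusted p = 0.00105). Its log2 fold change was -3.46 without tumour 2 and -4.85 without tumour 3. These tumour values rest on 2, 0 and 3 counts in tumours 1, 2 and 3, too few to rank the tumours. Tumour 3 was the library with skeletal muscle RNA, whose part in its Col22a1 value was not tested. Col19a1 had 1 count over the Foxp3Ctrl nodes and 3 over the tumours and was not tested.

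Both multiplexins, collagens of vascular and epithelial basement membrane zones, rose. Col15a1 was at 56.4, 62.4 and 54.7 CPM in the Foxp3Ctrl nodes, 53.3, 62.2 and 53.2 CPM in the Foxp3ΔJag1 nodes and 110.4, 80.7 and 70.5 CPM in the tumours, a small difference with all tumours higher, of 0.65 ± 0.17 on the log2 scale (SE; edgeR adjusted p = 0.00968). Col18a1, the precursor of endostatin, was at 19.2, 21.04 and 14.5 CPM in the Foxp3Ctrl nodes, 17.3, 26.1 and 14.03 CPM in the Foxp3ΔJag1 nodes and 87.8, 54.8 and 49.04 CPM in the tumours, with a log2 fold change of 1.85 ± 0.27 (SE; edgeR adjusted p = 0.000523). Its 3 tumours likewise lay above all 6 nodes. Among transmembrane collagens, Col13a1 rose and Col23a1 and Col17a1 fell. Col23a1 was at 11.3, 9.66 and 12.5 CPM in the Foxp3Ctrl nodes, 13.02, 11.1 and 11.00 CPM in the Foxp3ΔJag1 nodes and 1.78, 1.22 and 3.11 CPM in the tumours, with a log2 fold change of -2.40 ± 0.33 (SE; edgeR adjusted p = 0.000303). Node values of both genotypes lay together, well above the tumours. Col17a1, a hemidesmosome protein of basal keratinocytes, was at 1.16, 4.32 and 4.23 CPM in the Foxp3Ctrl nodes, 1.82, 1.48 and 3.01 CPM in the Foxp3ΔJag1 nodes and 0.399, 0.342 and 0.0311 CPM in the tumours, with a log2 fold change of -3.54 ± 0.75 (SE; edgeR adjusted p = 0.00379). The higher Foxp3Ctrl values came from nodes 2 and 3, the nodes with the most keratinocyte and epithelial marker RNA, whose part in this was not tested. Without Foxp3Ctrl node 3 and tumour 3 its log2 fold change was -2.88 (edgeR adjusted p = 0.0187). Col13a1 was at 0.881, 1.39 and 0.592 CPM in Foxp3Ctrl nodes and 3.09, 2.83 and 1.9 CPM in tumours, with a log2 fold change of 1.48 ± 0.38 (SE; edgeR adjusted p = 0.0084), and Col25a1 was at or under 0.187 CPM in every library. Of the other collagens, Col26a1 fell from 1.46, 1.18 and 0.62 CPM in Foxp3Ctrl nodes to 0.107, 0.0488 and 0.0311 CPM in tumours, by a fitted -4.00 ± 0.56 on the log2 scale (SE; edgeR adjusted p = 0.000329). Its tumour values rest on 4, 2 and 1 counts. Col28a1, known from nerve sheaths, was at 4.57, 5.92 and 5.56 CPM in Foxp3Ctrl nodes against 5.7, 2.78 and 1.59 CPM in tumours, with a log2 fold change of -0.61 ± 0.43 (SE; edgeR adjusted p = 0.224), and it passed without tumour 1 (-1.20, edgeR adjusted p = 0.0109).

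Markers of cells that make collagen did not move together between the tissues. Fibroblast and reticular cell markers, summed over 10 genes, were at 517, 491 and 521 CPM in Foxp3Ctrl nodes and 266, 163 and 163 CPM in tumours. The sum is led by Thy1, which T cells also express, and Cd34, which vessels also express. Without Thy1, a choice made after seeing the data, it was 191, 213 and 150.4 CPM in Foxp3Ctrl nodes and 215, 136 and 128 CPM in tumours, which overlapped. Tumours were lower without overlap for 5 of the 10 (Pdgfra, Thy1, Ccl19, Ccl21a and Cd34), beside 41.5% of all genes. Of these, Ccl21a was at only 0.0275, 0.0464 and 0.113 CPM in Foxp3Ctrl nodes and 0 in tumours, too low to weigh. Tumours were higher for 1 (36.5% of all genes), Pdpn, at 11.5, 10.5 and 7.25 CPM in Foxp3Ctrl nodes against 61.1, 42.3 and 54.5 CPM in tumours. Pdgfra was at 50.9, 44.6 and 37.8 CPM in Foxp3Ctrl nodes and 26.2, 10.3 and 11.6 CPM in tumours. Pdgfrb, at 40.8, 52.03 and 29.3 CPM in Foxp3Ctrl nodes against 38.9, 40.03 and 27.6 CPM in tumours, overlapped between them. Pericyte and smooth muscle markers (8 genes, led by Rgs5 and Des) summed to 291 to 384 CPM in Foxp3Ctrl nodes and 139 to 232 CPM in tumours. Tumours were lower without overlap for 5 of 8, against the same 41.5%. They were higher for 1 (36.5% of all genes), Cspg4, at 1.35, 2.11 and 1.75 CPM in Foxp3Ctrl nodes and 14.3, 16.5 and 14.6 CPM in tumours. Which cells of the tumour gave the Cspg4 RNA was not tested. Schwann cell markers (6 genes, led by Mbp and Pmp22) summed to 159 to 166 and 217 to 300.3 CPM. The part of cell composition in the tissue differences was not tested.

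Genes that act on collagen chains were taken from 4 lists. Of 18 genes for hydroxylation and folding, 13 rose, 3 fell and 2 did not pass, with a median log2 fold change of 1.97. Over all genes tested, 35.6% rose and 37.6% fell, with a median of -0.048. Plod2, a lysyl hydroxylase of the chain ends, was at 9.33, 5.78 and 7.05 CPM in the Foxp3Ctrl nodes, 7.13, 6.64 and 7.41 CPM in the Foxp3ΔJag1 nodes and 229.6, 179 and 152 CPM in the tumours, with a log2 fold change of 4.72 ± 0.24 (SE; edgeR adjusted p = 2.09e-06). Serpinh1, the collagen chaperone HSP47, was at 101, 71.1 and 85.3 CPM in the Foxp3Ctrl nodes, 75.8, 84.4 and 76.9 CPM in the Foxp3ΔJag1 nodes and 779, 586 and 654 CPM in the tumours, with a log2 fold change of 3.03 ± 0.17 (SE; edgeR adjusted p = 2.38e-06). P3h3, a member of the prolyl 3-hydroxylase family, rose by 3.10 ± 0.17 on the log2 scale (SE; edgeR adjusted p = 2.53e-06) from between 11.1 and 15.6 CPM to between 101 and 125 CPM. For each of these 3 genes the lowest tumour was above the highest node. P3h4, Colgalt1 and Colgalt2 fell, the last 2 being the galactosyltransferases that add sugar to hydroxylysine.

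Of 13 genes for propeptide removal and crosslinking, 12 were tested. Of these, 9 rose, 2 fell (Adamts3 and Tll1) and Loxl4 did not pass, beside 35.6% of all genes rising and 37.6% falling. Loxl3, a lysyl oxidase, was at 11.4, 13.4 and 13.1 CPM in the Foxp3Ctrl nodes, 15.9, 11.7 and 12.8 CPM in the Foxp3ΔJag1 nodes and 84.8, 87.2 and 80.2 CPM in the tumours, with a log2 fold change of 2.79 ± 0.11 (SE; edgeR adjusted p = 5.03e-07). Bmp1, the procollagen C-proteinase, rose by 1.54 ± 0.16 on the log2 scale (SE; edgeR adjusted p = 5.55e-05) from between 17.3 and 23.4 CPM to between 49.99 and 60.6 CPM. Adamts14, an N-proteinase, rose by 1.14 ± 0.17 on the log2 scale (SE; edgeR adjusted p = 0.000487) from between 6.66 and 8.43 CPM to between 12.95 and 17.8 CPM. Of 10 collagen receptors, 9 were tested. Of these, Ddr1, Ddr2, Itgb1 and Mrc2 rose, Itga2 and Lair1 fell and 3 did not pass, beside the same shares of all genes. The median log2 fold change of the receptors was -0.067, near the -0.048 over all genes tested. Ddr2, a receptor tyrosine kinase for fibrillar collagen, was at 42.2, 40.5 and 32.2 CPM in Foxp3Ctrl nodes and 233, 167 and 220.5 CPM in tumours, with a log2 fold change of 2.48 ± 0.18 (SE; edgeR adjusted p = 8.65e-06). Ddr1, its relative in epithelial cells, was at 25.1, 34.6 and 28.03 CPM in Foxp3Ctrl nodes against 148, 123 and 114 CPM in tumours, with a log2 fold change of 2.19 ± 0.16 (SE; edgeR adjusted p = 1.1e-05). Itgb1, the shared beta chain of the collagen-binding integrins, differed by 1.34 ± 0.12 on the log2 scale (SE; edgeR adjusted p = 3.13e-05).

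Of 14 genes of proteins that bind fibrils or basement membrane, 9 rose, 2 fell and 3 did not pass. Of all genes tested, 35.6% rose and 37.6% fell. Fmod and Dcn, the 2 genes of this list that fell, encode small leucine-rich proteoglycans that bind collagen fibrils. Fmod was at 50.1, 32.4 and 51.4 CPM in the Foxp3Ctrl nodes, 55.2, 43.5 and 50.5 CPM in the Foxp3ΔJag1 nodes and 2.00, 4.56 and 1.12 CPM in the tumours. Its tumour values were all far below the node values, with a log2 fold change of -4.04 ± 0.52 (SE; edgeR adjusted p = 0.000481). Dcn was at 189, 304 and 177 CPM in the Foxp3Ctrl nodes, 151, 196 and 190.2 CPM in the Foxp3ΔJag1 nodes and 68.5, 40.03 and 33.8 CPM in the tumours, with a log2 fold change of -2.19 ± 0.35 (SE; edgeR adjusted p = 0.00127). Col1a1, Col1a2 and Col3a1 rose in the same libraries, so Dcn and the fibril chains differed in opposite directions between the tissues. Of the other genes of that proteoglycan family in the list, Lum rose by 1.47 ± 0.48 on the log2 scale (SE; edgeR adjusted p = 0.0274), from between 2.74 and 6.36 CPM to between 7.59 and 20.4 CPM, and Bgn did not pass, at 255, 239 and 166 CPM in Foxp3Ctrl nodes against 251, 185 and 128 CPM in tumours (edgeR adjusted p = 0.591). Hspg2, the basement membrane proteoglycan perlecan, rose by 1.13 ± 0.15 on the log2 scale (SE; edgeR adjusted p = 0.000285).

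The second comparison asked whether node collagens differed by the genotype of the mouse. Of the 44 members, 36 passed the filter, and none rose or fell by edgeR, beside 0.0325% of the 18440 genes tested that rose and 0.00542% that fell (0.038% either way). DESeq2 and limma-voom also called 0 members. An unadjusted p under 0.05 was seen for 2 of the 36, Col4a5 and Col27a1, beside 3.15% of all genes. Fitted changes were below 0 for 22 members and above 0 for 14, beside 51.2% of all genes below 0, and their median was -0.084, beside -0.0045 over all genes. Groups did not overlap for 1 member with Foxp3ΔJag1 higher, Col27a1 (4.11% of all genes), and for 1 with it lower, Col4a5 (3.18%). Summed over the 44 genes, Foxp3ΔJag1 nodes averaged 1158 ± 176 CPM beside 1361 ± 456 CPM for Foxp3Ctrl (SD, n = 3 each), a difference smaller than the spread between Foxp3Ctrl nodes.

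Col4a5 had the smallest p of the members, with Foxp3Ctrl nodes at 1.29, 2.07 and 2.59 CPM and Foxp3ΔJag1 nodes at 1.25, 0.694 and 0.943 CPM. The highest Foxp3ΔJag1 value lay just under the lowest Foxp3Ctrl value. Its log2 fold change was -1.06 ± 0.32 (SE; unadjusted p = 0.00957, edgeR adjusted p = 0.953). Col27a1, at 30.9, 29.4 and 29.6 CPM in Foxp3Ctrl nodes against 37.4, 34.8 and 32.3 CPM in Foxp3ΔJag1 nodes, was higher in each Foxp3ΔJag1 node than in each Foxp3Ctrl node by a small amount, a log2 fold change of 0.19 ± 0.084 (SE; unadjusted p = 0.0497, edgeR adjusted p = 0.953). Col20a1, a FACIT chain, was at 3.52, 2.14 and 5.16 CPM in Foxp3Ctrl nodes against 6.2, 4.34 and 5.37 CPM in Foxp3ΔJag1 nodes, with a log2 fold change of 0.55 ± 0.29 (SE; unadjusted p = 0.0954, edgeR adjusted p = 0.953). Of the 3 Foxp3ΔJag1 values, 2 lay above the Foxp3Ctrl range and 1 inside it. Col6a5 was at 10.8, 13.6 and 4.94 CPM in Foxp3Ctrl nodes against 5.47, 5.67 and 8.44 CPM in Foxp3ΔJag1 nodes, with a log2 fold change of -0.61 ± 0.39 (SE; unadjusted p = 0.157, edgeR adjusted p = 0.953). Col9a3 and Col9a2, both chains of collagen IX, had fitted changes of opposite sign and did not pass. Col9a3 was at 2.09, 1.37 and 3.1 CPM in Foxp3Ctrl nodes against 3.1, 3.65 and 2.38 CPM in Foxp3ΔJag1 nodes, with a log2 fold change of 0.46 ± 0.30 (SE; unadjusted p = 0.161, edgeR adjusted p = 0.953). Col9a2 was at 0.799, 0.743 and 0.874 CPM in Foxp3Ctrl nodes against 0.781, 0.332 and 0.674 CPM in Foxp3ΔJag1 nodes, with a log2 fold change of -0.44 ± 0.33 (SE; unadjusted p = 0.221, edgeR adjusted p = 0.953). All 4 of these last genes overlapped between the groups.

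For Col1a1, Col1a2, Col3a1, Col4a1 and Col4a2, all 3 Foxp3ΔJag1 values lay inside the range of the Foxp3Ctrl nodes. Col1a1 had a log2 fold change of -0.36 ± 0.56 (SE; unadjusted p = 0.55, edgeR adjusted p = 0.956), Col3a1 of -0.46 ± 0.61 (SE; unadjusted p = 0.488, edgeR adjusted p = 0.956) and Col4a1 of -0.43 ± 0.40 (SE; unadjusted p = 0.338, edgeR adjusted p = 0.953). Foxp3Ctrl node 3 was the lowest of the 6 nodes for 15 of the 36 members tested, beside 15.0% of all genes, and Foxp3Ctrl node 2 the highest for 12, beside 19.7%. Foxp3Ctrl node 3 is also the node with the most keratinocyte and epithelial marker RNA and the most pigment cell marker RNA. It is one of 2 with the most adipocyte marker RNA, and the part of these in its collagen levels was not tested. Without Thy1, its fibroblast and reticular cell markers summed to 150.4 CPM, beside 142 to 213 CPM in the other nodes, and its Pdgfrb, at 29.3 CPM, was the lowest of the 6 nodes (36.7 to 52.03 CPM in the others); their part in its collagen levels was not tested. Foxp3Ctrl node 3 was singled out for its low collagen values, so leaving it out by itself moves the fitted changes of those members down. Without it, fitted changes were below 0 for 25 of 36 members (50% of all genes). Their median was -0.18 (-0.00011 over all genes). In that fit 15 had an unadjusted p under 0.05, beside 16.9% of all genes, but none passed adjustment (smallest edgeR adjusted p = 0.158). Leaving out Foxp3ΔJag1 node 1 as well was an alternative chosen after seeing the data. Each of these nodes held the lowest collagen sum of its group (841 and 993 CPM). It gave 28 of 35 below 0 (50.5% of all genes) and a median of -0.27 (-0.0022 over all genes). An unadjusted p under 0.05 was seen for 11 (11.4% of all genes), and 0 were called. Without Foxp3Ctrl node 2 the split was 19 below and 17 above 0 (51% of all genes below 0), with a median of -0.032 (-0.0031 over all genes). None of the 4 lists of genes that act on collagen had a member called between the genotypes, over 18, 12, 9 and 14 genes tested. Over all genes tested, 0.038% were called.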

How the data were processed

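RNA of whole tissue was sequenced by the submitters. The authors deposited raw read counts per gene, with nodes and tumours in separate tables. Their processing notes name Trimmomatic 0.36, STAR 2.5.2b, featureCounts of Subread 1.5.2 and build GRCm38. The sources used here give neither the annotation nor the strand setting. Reads of overlapping genes may therefore be mixed: 13 of the 44 collagen genes share exon bases with another gene, at most 6.07% of their exons. Whether poly(A) RNA was selected or ribosomal RNA removed is not settled by the protocol. All samples carry batch 1.

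The labels describe 13 samples, and 9 libraries were used. Names of 3 tumour columns fit no labelled sample and these columns were left out, and the 4 Foxp3ΔJag1 tumours were not analysed here. Of 49315 identifiers, 49056 matched GENCODE M21, and the rest held at most 0.025% of the counts of a library. CPM was computed from total counts, and means carry the SD over libraries. Genes were tested with edgeR 4.0.16 in R 4.3.3 (quasi-likelihood test, TMM, filterByExpr, robust dispersion) on the 6 libraries compared, and p-values were adjusted over all genes by Benjamini-Hochberg, with calls at 0.05. Ratios of chains were compared with an exact 2-sided permutation test (SciPy 1.17.1) of log2 ratios. The scripts were tested on simulated data with 100 genes changed 2-fold and 100 changed 4-fold. In the node setting 62 and 91 of these were called, and 16 of 169 calls were false. In the tissue setting 45 and 82 were called, and 12 of 139 calls were false. The real tissue comparison differs from this setting, since 73.2% of its genes were called. The p-values measure the spread between these samples, and intervals cover counting error only.

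The members and the gene lists were chosen with earlier results of these data known. Genes named with full values were the 3 members of each family with the highest mean CPM, the 8 called members with the largest and the 8 with the smallest tissue fold change, the 6 with the smallest p between genotypes and the 3 with the smallest p of each list of genes that act on collagen. For marker lists, the sum and the most abundant genes were taken. Other genes were named after their values were seen.

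Node and tumour of a Foxp3Ctrl mouse pair by the mouse code in their library names. Their deviations from the group means correlated at -0.083, 0.127 and -0.003. Alternatives were other size factors, DESeq2 1.42.0, limma 3.58.1 (voom, with and without quality weights), other filters, non-robust dispersion, one fit of all 9 libraries, a replicate block, thresholds of 0.01 and 0.1, and each library left out in turn.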

Additional observations from a re-analysis of the deposited data

How the results depend on the processing

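The number of collagen genes called between tumour and node, 33, ranged from 26, when 3 libraries had to reach a CPM of 1, to 36, with the mouse as a replicate block, in a joint fit or at a threshold of 0.1. At the CPM filter fewer genes were tested: the called genes Col2a1, Col8a2, Col9a1, Col10a1, Col11a1, Col22a1 and Col26a1 did not reach it. The number called was 33 to 35 when one library was left out, and 28 at a threshold of 0.01. Of the 33 called genes, 29 kept their call under all alternatives that gave a value at the same threshold and 4 lost it under at least one (Col1a1, Col1a2, Col4a1 and Col9a2). None changed sign, scaling alternatives included. The replicate block added Col4a2, Col6a1 and Col6a2. Between the node genotypes, 0 collagen genes were called under every alternative, the replicate block included, where the numbers link different mice. Same-numbered nodes correlated at -0.165, 0.034 and -0.124. For the ratio of chains, the only change of sign was in Col3a1 to Col1a1, whose log2 difference ran from -0.027 (without Foxp3Ctrl node 2) to 0.21 when one library was left out. With the pairing of mice, the sign-flip permutation p was 0.25 for the other 3 ratios, the smallest that 3 pairs can give, and 0.5 for Col3a1 to Col1a1. Without the filter on low counts, Col4a3, Col4a6, Col19a1 and Col25a1 were tested too, and Col4a3 alone of them passed (log2 fold change 2.61, edgeR adjusted p = 0.00358; the other 3 at 0.0538 to 0.458). When one library was left out, Col4a3 passed in the 4 fits that tested it, and Col4a6 in 2 of 4.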
